A study of Mus musculus with 6 samples.

Results

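The 9 genes described here carry arginine into the cell and use it: Slc7a1 and Slc7a2, Nos2, Gch1, Ass1 and Asl, Arg1 and Arg2, and Odc1. They were taken by gene name from all gene probes of the array, a rule that itself uses no measured value. The list was, however, chosen with earlier results of these data known. They account for 9 of 34741 genes and 14 of 55681 probes, read on all 6 arrays. Of these 14 probes, 12 were well above background on every array, and those of Arg1 and Slc7a2 were so on the 4 macrophage arrays and not on the neutrophil arrays.

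Arginine is the substrate of both nitric oxide synthase and arginase. The inducible synthase, encoded by Nos2, turns arginine into citrulline and nitric oxide, needs tetrahydrobiopterin as a cofactor, and is a hallmark of macrophages exposed to microbial products and interferon gamma. Arginase turns arginine into ornithine and urea, ornithine feeds polyamine and proline synthesis, and Arg1 is a familiar marker of alternatively activated mouse macrophages. Citrulline can be turned back into arginine by the products of Ass1 and Asl.

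The study compared mice lacking TIARP, the protein encoded by Steap4, a metalloreductase of the STEAP family induced by tumour necrosis factor (TNF), with wild-type mice. All animals were C57BL/6, of genotype TIARP+/+ (WT) or TIARP-/- (KO). The 6 groups were peritoneal macrophages of each genotype, the same cells labelled TNFalpha+, and Ly6G+ neutrophils of the spleen of each genotype, isolated on magnetic columns. Macrophages were collected 3 days after thioglycollate medium was injected into the peritoneal cavity, which draws in new cells, and TNF was applied for 24 hours at a dose the labels do not give. The labels number the mice of each group 1 to 3 but give 1 array per group, and whether the RNA of these mice was pooled is not given. Age, sex, the part of Steap4 that was deleted and the time in culture of cells without TNF are not given either, nor is it said whether the mice that gave neutrophils received thioglycollate.

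With 1 array per group there was no replicate, so no difference below has a test or a p-value. Levels are given as multiples of the 75th percentile of signal on the same array, and differences as log2 of their ratio. A gene was counted as different where it was at least 2-fold apart and well above background on the brighter array. The scatter between repeat spots of 1 probe within an array was 0.07 (median SD, log2), or 0.09 for a difference, and covers technical error only. Levels of different probes were not set against each other, and in such bulk RNA fewer expressing cells and less RNA per cell cannot be told apart.

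Between 56.6% and 62.2% of probes were well above background per array, and the 75th percentile signal ranged from 224 to 489.8. The Steap4 probe read 175 in WT and 83.1 in KO macrophages, 49.2 and 12.8 with TNF, and 48.8 and 36.0 in neutrophils. Of these readings, 12.8 was not well above background. After scaling, the probe was 3.13-fold lower with TNF in WT macrophages (log2 -1.65) and at least 5.35-fold lower in KO. This direction is opposite to the induction by TNF named above. Without knowledge of the deleted part, these readings do not check the genotype labels. All 11 macrophage markers and all 10 markers of mature neutrophils were above background on every array. This alone does not show cells of the other type, since some listed markers separated the preparations poorly. The neutrophil marker Csf3r stood at 116 in WT macrophages and 199 in WT neutrophils, and the macrophage marker Itgam at 43.1 and 93.2. The summed level of the neutrophil markers was 168 in WT and 445 in KO macrophages, 234 and 497 with TNF, and, in neutrophils, 2234 and 2756. B cell markers summed to 6.66 and 19.7 in WT and KO macrophages, 4.79 and 14.4 with TNF, and 547 and 512 in neutrophils.

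Arg2 was the member that stood higher in the KO in all 3 comparisons. Nos2 and Arg1 were higher in the KO in macrophages with TNF, by more than 3-fold each. TNF was accompanied by large increases of Slc7a2, Ass1 and Gch1 in both genotypes, and by a decrease of Arg1 in WT macrophages. Under the main scaling, Slc7a1, Asl and Odc1 stayed within 2-fold of their WT level in every KO comparison and within 2-fold between macrophages with and without TNF.

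**Figure D1:**
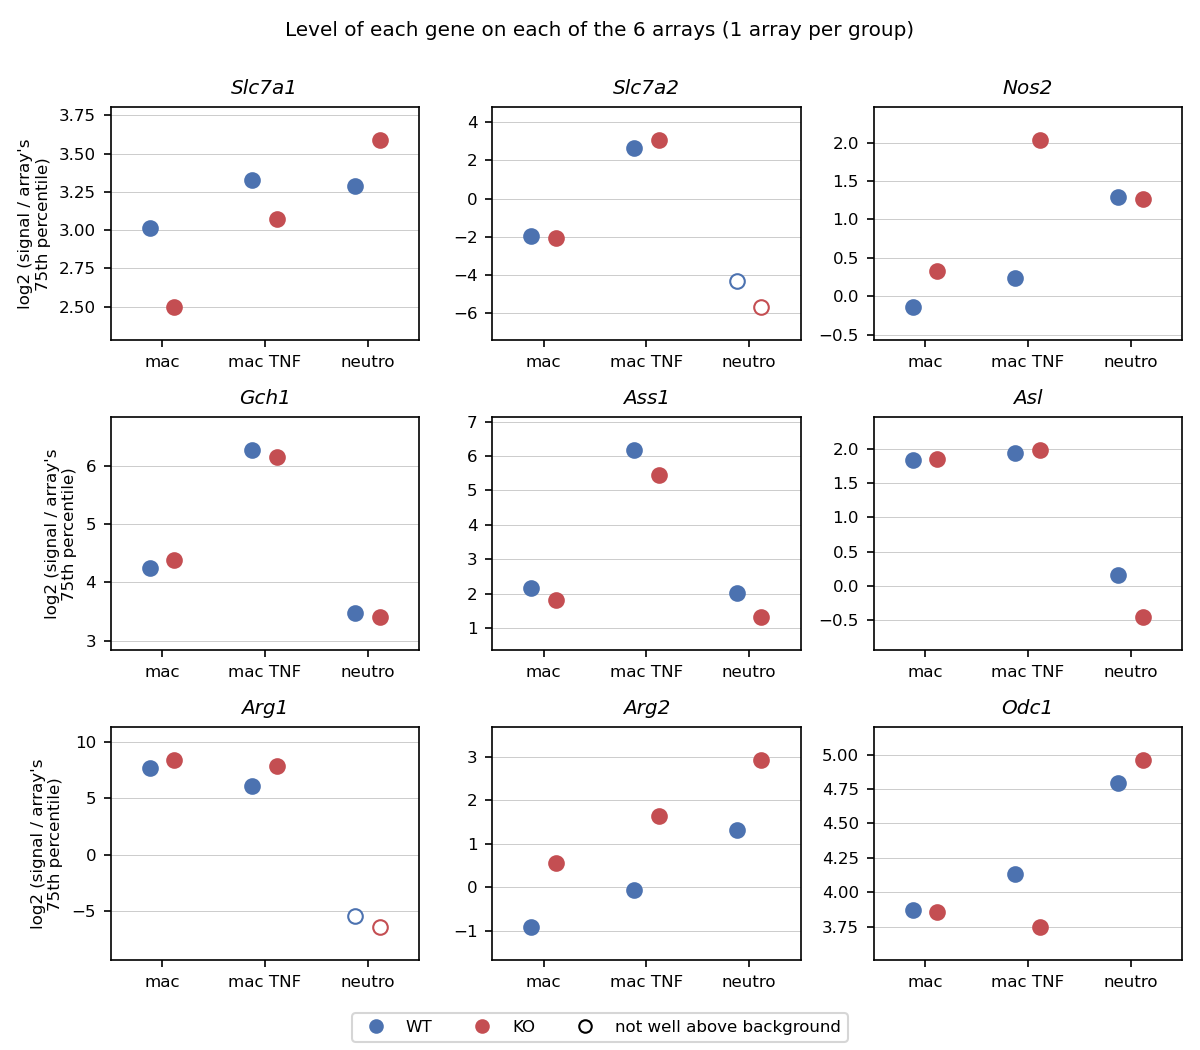
Level of each of the 9 genes on the 6 arrays, as log2 of signal over the array's 75th percentile; each point is 1 array, blue for WT and red for KO, and open points were not well above background. Each panel has its own vertical scale. Arg2 is higher in the KO in each of the 3 pairs, and Slc7a2, Ass1 and Gch1 are higher on both TNF arrays than on the arrays without TNF.

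Counted over the list, 1 of 9 members was higher and none lower in KO than in WT macrophages without TNF, where 5.65% of 24584 genes were called (4.09% higher and 1.56% lower). With TNF, 3 of 9 members were higher and none lower, where 9.67% of 23703 genes were called (6.98% higher and 2.69% lower). In neutrophils, 1 of the 7 members measured was higher and none lower, where 8.39% of 23970 genes were called (3.65% higher and 4.74% lower). The members' median log2 difference was 0.01, 0.04 and -0.02 in these comparisons, against 0.07, 0.05 and -0.01 over all genes tested. Since the list was chosen with earlier results of these data known, the shares over all genes are no test of it.

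The balance of these counts depended on how arrays were set against each other. Of all genes called, 72.4%, 72.2% and 43.5% were higher in the KO under the main scaling. When arrays were instead scaled to 8 spike-in probes, which read control RNA added to each sample, these shares were 19.9%, 8.5% and 13.1%. Every KO-minus-WT value then fell by an equal amount within a comparison. The 8 probes did not move alike. Before scaling, their KO-minus-WT log2 differences averaged 0.27, 0.43 and 0.37, with SDs of 0.27, 0.18 and 0.42. This spread carries into every value scaled to the spike-ins. Under that scaling the members called were Slc7a1, lower, in macrophages without TNF, then Nos2, higher, with Slc7a1, Ass1 and Odc1, lower, with TNF, and Arg2, higher, with Ass1 and Asl, lower, in neutrophils. Quantile normalization gave 60.9% higher among all genes with TNF and called the same 3 members, Nos2, Arg1 and Arg2.

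**Figure D2:**
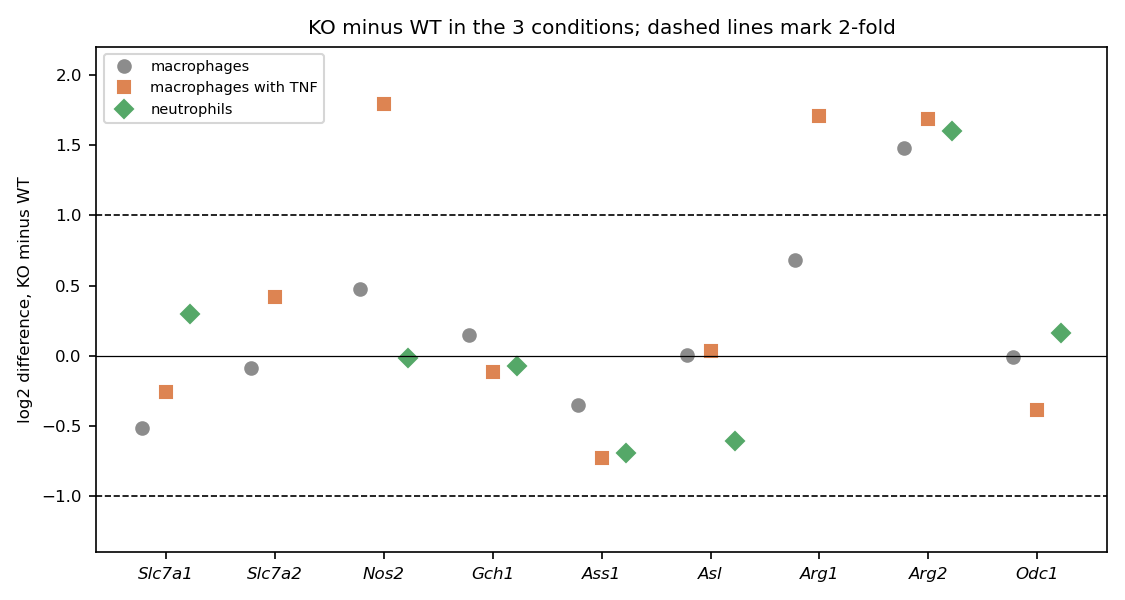
KO-minus-WT log2 difference of each gene in macrophages without TNF (grey circles), with TNF (orange squares) and in neutrophils (green diamonds), 1 array per group; dashed lines mark 2-fold. Arg2 lies at 1.48, 1.69 and 1.60, and Nos2 and Arg1 pass the line with TNF at 1.79 and 1.71. Arg1 and Slc7a2 have no neutrophil point because neither neutrophil array measured them above background.

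Slc7a1 encodes CAT-1, the broadly expressed cationic amino acid transporter. Its probe lies on mm9 chromosome 5 at 149139957 to 149140016, minus strand. Slc7a1 stood at 8.08 in WT and 5.65 in KO macrophages, 10.0 and 8.40 with TNF, and, in neutrophils, 9.78 and 12.0. The 6 arrays thus lay close together, with no neighbours in their order 2-fold apart. The KO-minus-WT differences were -0.52, -0.26 and 0.30, and those with TNF were 0.31 in WT and 0.57 in KO macrophages, all short of 2-fold under the main scaling.

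Slc7a2 encodes CAT-2, whose low-affinity and high-affinity forms are splice products of a single gene and which supplies arginine to activated macrophages. Its probe, on chromosome 8 at 42002869 to 42002928, plus strand, was not assigned here to either form. Slc7a2 stood at 0.26 in WT and 0.24 in KO macrophages without TNF, and at 6.21 and 8.32 when TNF was given. The TNF arrays were far above the others in both genotypes, by 24.3-fold in WT (log2 4.60) and 34.6-fold in KO (log2 5.11). Only 53 of 24598 genes had a larger TNF increase in WT, and 15 of 23911 in KO. Between genotypes the gene differed by -0.09 without TNF and 0.42 with TNF, and its TNF differences were 0.51 apart, all within 2-fold. On both neutrophil arrays it was not well above background, at least 5.12-fold below WT macrophages and at least 5.13-fold below KO macrophages. These bounds shrank to log2 -0.52 and -0.53 under another background correction (normexp), which ends the call.

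The further transporters were a list of 14 genes, which includes the heavy chain and the light chains that carry arginine out of cells or exchange related amino acids. None of 10 measured was different between KO and WT macrophages without TNF, none of 11 with TNF, and 2 of 10 were lower in KO neutrophils. Those were Slc7a8, a neutral amino acid transporter, at 2.19 in WT and 0.90 in KO neutrophils (log2 -1.29), and Slc7a3, a further cationic transporter, at 0.44 and 0.19 (log2 -1.18, or -0.66 under normexp). With TNF, 1 of 11 was higher in WT and 1 of 10 in KO macrophages, in each case Slc7a11, the cystine and glutamate exchanger. Slc7a11 went from 0.63 to 7.82 in WT (log2 3.64) and from 0.33 to 4.71 in KO (log2 3.82). Its partner Slc3a2, the heavy chain shared by several of these carriers, went from 47.8 to 95.1 in WT and from 46.6 to 83.2 in KO, just short of 2-fold (log2 0.99 and 0.84). Slc7a7, a light chain that exports arginine, showed -0.23 and -0.32.

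Nos2 encodes inducible nitric oxide synthase. Its probe lies on chromosome 11 at 78773567 to 78773626, plus strand, and was printed in 2 spots. The spots read 391 and 506 (unscaled signal) in WT macrophages without TNF, less alike than on any other array. Nos2 stood at 0.91 in WT and 1.26 in KO macrophages, 1.18 and 4.08 with TNF, and, in neutrophils, 2.44 and 2.41. KO macrophages with TNF were the highest of the 6 arrays, followed by the pair of neutrophil arrays, which were 0.02 apart on the log2 scale. With TNF the KO was 3.47-fold above WT (log2 1.79), and without TNF the difference was 0.47. The value with TNF was 1.01 when arrays were scaled to the spike-ins, still past 2-fold.

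TNF was accompanied by a 3.24-fold higher Nos2 level in KO macrophages (log2 1.70) and a 1.30-fold higher level in WT (log2 0.38). The difference between these TNF differences was 1.32, and 122 of 21739 genes had a larger one. That value and the WT TNF difference rest on the mean of the 2 unlike spots in WT macrophages without TNF. Nos2 and Arg1 were the 2 of 9 members past 2-fold in the difference between TNF differences. There 2.12% of genes were called (1.5% higher and 0.621% lower in the KO). The KO TNF array is also the array of the KO-minus-WT comparison with TNF, so these values are not independent of each other.

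The other synthases, Nos1 and Nos3, showed no 2-fold difference on their brightest probe between genotypes or with TNF. Nos1, the neuronal form, stood at 0.46 and 0.47 in WT and KO macrophages and 0.72 and 0.67 with TNF. Nos3, the endothelial form, stood at 0.58 and 0.60, and 0.88 and 0.83 with TNF. Its 2 probes ranged from 0.60 to 1.31 for TNF in WT, where 1 of them passed 2-fold, and from 0.47 to 0.98 in KO. Across the list of 18 genes of nitric oxide synthesis, its inhibitors and cGMP signalling, none of 17 measured differed between the genotypes in macrophages without TNF, none of 16 with TNF and none of 15 in neutrophils. Txnrd1, a thioredoxin reductase, was higher with TNF in WT (log2 1.36) and in KO (log2 1.05, or 0.75 with spike-ins), and Ddah1, which degrades methylated arginine inhibitors of the synthases, was higher with TNF in WT (log2 1.37, or 0.84 under normexp). Gucy1a1, a subunit of the nitric oxide receptor guanylate cyclase, was lower with TNF in WT (log2 -2.67) and at least 4.18-fold lower in KO. Under normexp these values were -1.15 and -0.60.

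Among 16 listed regulators of Nos2, such as interferon receptors, STAT and NF-kB genes, none of 14 measured differed between KO and WT macrophages without TNF or with TNF. Their median differences were 0.21 and 0.33. Jak2, a kinase of the interferon gamma receptor, was higher with TNF in WT (log2 1.10) and KO (log2 1.41), the 1 regulator of 14 past 2-fold in each genotype. In neutrophils Nfkbiz was higher in the KO (log2 1.05), and Ifng was at least 2.57-fold lower there. The listed regulators Ifnb1 and Ifng were not well above background on any macrophage array and so were not measured there. The part of any regulator in the Nos2 difference in macrophages with TNF was not tested.

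Gch1 encodes GTP cyclohydrolase, the first and rate-limiting enzyme of tetrahydrobiopterin synthesis. Its main probe lies on chromosome 14 at 47775348 to 47775407, minus strand. Gch1 stood at 18.9 in WT and 20.9 in KO macrophages, 76.9 and 71.1 with TNF, and, in neutrophils, 11.1 and 10.6. The TNF arrays were the highest pair, 4.07-fold above the array without TNF in WT (log2 2.03) and 3.40-fold in KO (log2 1.76), and 420 and 417 genes had a larger increase. Both Gch1 probes gave this, between 2.01 and 2.03 in WT and between 1.74 and 1.76 in KO. The genotypes differed by 0.15, -0.11 and -0.07, and the second probe read 0.66 in neutrophils.

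The sequence upstream of Gch1 is shown because its transcript was among those that rose with TNF, a cytokine that acts through NF-kB. RefSeq promoter windows on GRCm38.p6 were found for 4 of the 9 genes, Ass1, Slc7a1, Odc1 and Gch1, in 5 windows. The 250 bases before the Gch1 start, chr14:47189414-47189663 on the minus strand, read 5′ to 3′, with matches in capitals to the TATA box (TATAAA on either strand), C/EBP (TTNNGNAA) and kB motifs:
Gch1 upstream: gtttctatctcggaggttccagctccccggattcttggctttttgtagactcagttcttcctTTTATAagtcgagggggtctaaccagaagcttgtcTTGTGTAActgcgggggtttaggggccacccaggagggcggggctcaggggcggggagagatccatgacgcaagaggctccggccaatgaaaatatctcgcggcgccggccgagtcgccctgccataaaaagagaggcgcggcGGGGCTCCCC

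The kB match is GGGGCTCCCC at -10 to -1, next to the start, the C/EBP match TTGTGTAA lies at -153 to -146, and the TATA box letters lie on the opposite strand at -188 to -183. Among 32851 promoter windows of this length, 7.25% held a kB match on either strand, 36.8% a C/EBP match and 12.4% a TATA box match. Such matches describe the letters only. They are not evidence of binding.

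Of the 7 further tetrahydrobiopterin genes, 1 was higher in the KO in macrophages without TNF, 1 with TNF and none in neutrophils, and none passed 2-fold between TNF and no TNF. The gene was Gchfr in both cases, which encodes the feedback regulatory protein of GTP cyclohydrolase. Gchfr stood at 0.02 in WT and 0.44 in KO macrophages, 0.04 and 0.43 with TNF, and, in neutrophils, 0.65 and 0.50. The WT macrophage arrays were thus the low ones, and the KO was 18.1-fold higher without TNF (log2 4.18) and 9.79-fold higher with TNF (log2 3.29). The 1 Gchfr probe read 11.8 and 18.9 (unscaled signal) on these WT arrays. Their lowest signals well above background were 10.0 and 9.99, so the folds rest on dim readings. Under normexp, which lifts dim signals, the values were 2.03 and 1.77, and with spike-ins the value with TNF was 2.51. WT neutrophils stood 26.9-fold above WT macrophages, a value that rests on the same dim reading without TNF. Of the neutrophil markers, 5 of 10 were higher in KO macrophages without TNF and 4 of 10 with TNF. B cell markers were higher there for 4 of 5 and monocyte markers for 3 of 4 in each condition. The WT neutrophil array also held B cell markers, with a sum of 547 against 6.66 in WT macrophages. The part of any of these cell types in the Gchfr difference was not tested. Spr, the last enzyme of the synthesis, stood at 5.57 and 5.89 without TNF and 7.81 and 7.72 with TNF.

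Ass1 encodes argininosuccinate synthase, the rate-limiting step in the return of citrulline to arginine. Its main probe lies on chromosome 2 at 31376068 to 31376127, plus strand, and its annotation in the files also names the pseudogene Gm5424, so signal of the pair cannot be told apart. Ass1 stood at 4.44 in WT and 3.48 in KO macrophages, 71.8 and 43.4 with TNF, and, in neutrophils, 4.02 and 2.49. The TNF arrays were the highest, 16.2-fold above no TNF in WT (log2 4.02) and 12.5-fold in KO (log2 3.64), with 82 and 84 genes showing larger increases. The second probe gave 4.19 and 3.84.

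The KO array was the lower of each Ass1 pair, by -0.35, -0.73 and -0.69, all short of 2-fold. The upstream sequence of Ass1, the other gene with a window and a large TNF difference, is shown for comparison with that of Gch1. It covers chr2:31470020-31470269 on the plus strand of GRCm38.p6, 5′ to 3′, with an E-box (CACGTG) in capitals at -36 to -31:
Ass1 upstream: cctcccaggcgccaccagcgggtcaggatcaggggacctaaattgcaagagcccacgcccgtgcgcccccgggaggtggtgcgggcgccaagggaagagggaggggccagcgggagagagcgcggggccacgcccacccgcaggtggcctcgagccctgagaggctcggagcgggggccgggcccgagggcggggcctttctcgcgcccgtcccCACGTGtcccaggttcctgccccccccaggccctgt

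No kB match was found in this window, whereas 6.02% of windows held the E-box. In the windows of Slc7a1, an AP-1 match (TGANTCA) lay at -123 to -117 of one start, and GAS (TTCNNNGAA), C/EBP and TATA box matches lay upstream of the other. The Odc1 window held none of the motifs searched, which also covered sites for STAT6 and for interferon regulatory factors.

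Asl encodes argininosuccinate lyase, the next step after Ass1. Its probe, on chromosome 5 with the files giving 130487964 to 130488549 on the minus strand, spans 586 bases of the genome for 60 bases of probe. Asl stood at 3.57 in WT and 3.60 in KO macrophages, 3.84 and 3.93 with TNF, and, in neutrophils, 1.12 and 0.73. It was level across the 4 macrophage arrays, whereas both neutrophil arrays were lower. The TNF differences were 0.10 and 0.13, so of the 2 enzymes of arginine resynthesis Ass1 passed 2-fold with TNF and Asl did not.

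**Figure D3:**
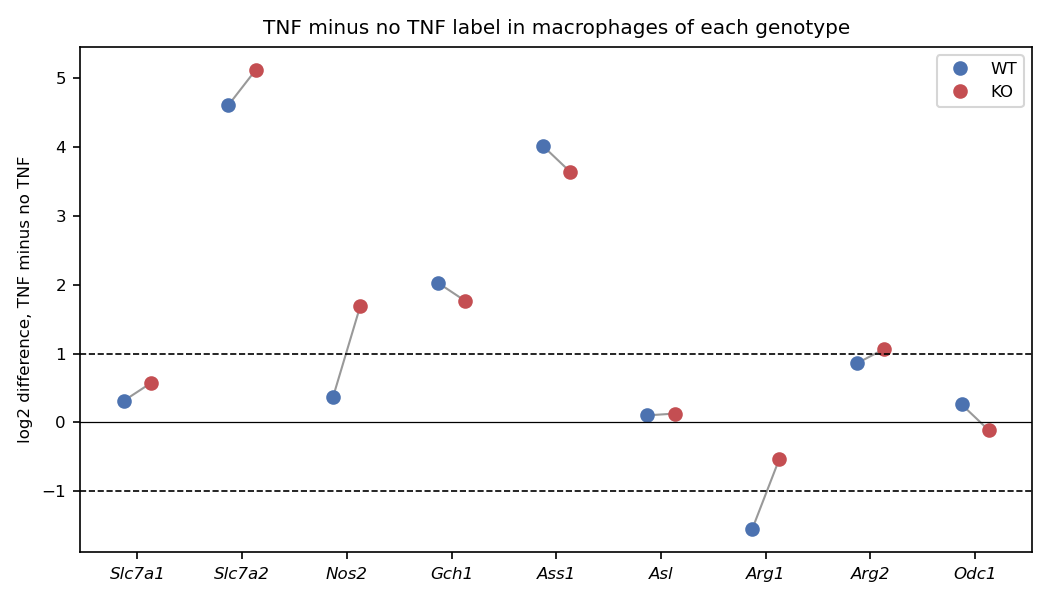
TNF-minus-no-TNF log2 difference of each gene in WT (blue) and KO (red) macrophages, 1 array per group, joined by a line; dashed lines mark 2-fold. Slc7a2, Ass1 and Gch1 lie above the line in both genotypes, Nos2 and Arg2 in the KO, at 1.70 and 1.06, and Arg1 lies below it in WT, at -1.55.

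Counted over the list, 3 of 9 members were higher and 1 lower with TNF in WT macrophages, where 9% of 24598 genes were called (4.41% higher and 4.6% lower). In KO macrophages 5 of 9 were higher and none lower, where 8.18% of 23911 genes were called (4.45% higher and 3.73% lower). The members' medians were 0.38 and 1.06, against 0.02 over all genes in each genotype. Here too the list was chosen with earlier results of these data known.

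Arg1 encodes the cytosolic arginase and Arg2 the mitochondrial one. Their probes are shown because the proteins are closely related and the transcripts followed different patterns. Their place in the transcripts was not looked up. Arg1 lies at chr10:24636194-24636253 on the minus strand and Arg2 lies at chr12:80252972-80253031 on the plus strand of mm9:
Arg1 probe: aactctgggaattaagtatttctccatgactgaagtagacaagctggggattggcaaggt
Arg2 probe: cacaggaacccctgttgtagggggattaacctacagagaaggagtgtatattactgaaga

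The longest run of bases that the 2 probes share is 7. Arg1 stood at 204 in WT and 328 in KO macrophages and at 69.6 and 227 with TNF, while both neutrophil arrays were not well above background. WT macrophages with TNF were the lowest of the 4 macrophage arrays, more than 2-fold below the next, and no spot was saturated (0 on the 6 arrays). Against WT, the KO was 3.26-fold higher with TNF (log2 1.71), and 0.69 higher on the log2 scale without TNF. With spike-ins the first value was 0.93, short of 2-fold. TNF was accompanied by a 2.93-fold lower level in WT (log2 -1.55) and a 1.44-fold lower level in KO (log2 -0.53).

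The 2 TNF differences of Arg1 were 1.02 apart, just past 2-fold, and 306 of 21739 genes had a larger positive value. That value was 0.76 with spike-ins and 0.995 under normexp, so it lay on the edge of the rule. Of 15 listed regulators of Arg1, such as Stat6, Cebpb and PPAR genes, none of 14 differed between KO and WT macrophages without TNF and none of 13 with TNF. With TNF, Pparg, a nuclear receptor of alternative activation, was lower in WT (log2 -1.72) and in KO (log2 -2.09). Cebpa was lower in WT (log2 -1.28), and Il10 was at least 2.73-fold lower in WT and at least 2.01-fold lower in KO. Hif1a, which encodes an oxygen-sensing factor, was higher with TNF in KO (log2 1.19). Short of 2-fold, Hif1a also rose in WT, from 7.09 to 12.1, and Cebpa fell in KO, from 18.9 to 9.97. None of 13 regulators measured passed 2-fold in the difference between TNF differences.

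Arg2 stood at 0.53 in WT and 1.48 in KO macrophages, 0.96 and 3.09 with TNF, and, in neutrophils, 2.49 and 7.56. The KO array was the higher of every pair, and KO neutrophils were the highest of all, more than 2-fold above the next array. The KO was 2.79-fold above WT without TNF (log2 1.48), 3.22-fold with TNF (log2 1.69) and 3.04-fold in neutrophils (log2 1.60). No array is shared among these 3 comparisons, but the labels give the mice the same numbers. The comparisons therefore cannot be taken as independent repeats. Of 21684 genes measured in all 3 comparisons, 89 (0.410%) were higher in the KO past 2-fold each time, Arg2 among them, and 40 (0.184%) were lower. In single comparisons the difference was not extreme, with 641, 687 and 436 genes showing a larger increase. With spike-ins the values were 0.96 and 0.91 in macrophages, short of 2-fold, and 1.19 in neutrophils.

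TNF was accompanied by a 1.81-fold higher Arg2 level in WT (log2 0.86) and a 2.09-fold higher level in KO (log2 1.06), on either side of the 2-fold line and 0.21 apart. The KO value was 0.96 under normexp and 0.76 with spike-ins. Arg2 was also 4.71-fold higher in WT neutrophils than in WT macrophages. Beside the Arg2 and Nos2 differences in macrophages stand the neutrophil markers, of which 5 of 10 were higher in the KO without TNF and 4 of 10 with TNF, with list medians of 0.86 and 0.19. S100a9, a calgranulin gene, differed by 4.92 and 4.10 on the log2 scale, Cxcr2, a chemokine receptor gene, by 3.88 and 3.53, and Ly6g, the gene of the sorting marker, by 1.81 and 1.85. The differences of the other neutrophil markers were uneven, from 0.06 (Trem1) to 2.22 (S100a8) without TNF and from -0.58 (Mmp9) to 1.28 (S100a8) with TNF. B cell markers were higher for 4 of 5 in each comparison, monocyte markers for 3 of 4, T cell markers for 3 of 6 and granule precursor markers for 3 of 7. For mast cells and basophils, 3 of 4 markers were higher without TNF and 2 of 4 with TNF. Resident peritoneal macrophage markers were higher for 2 of 7 without TNF and lower for 2 of 7 with TNF, and mesothelial and fibroblast markers were lower for 3 of 6 without TNF and 2 of 6 with TNF.

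The part of these markers in the results was not tested. In neutrophils, where Arg2 was also higher in the KO, 2 of 10 neutrophil markers were past 2-fold, Cxcr2 (1.63) and Mxd1 (1.53). All 10 were above 0, from 0.05 for S100a9 and 0.15 for Ly6g upwards, with a median of 0.95 against -0.01 over all genes. There 7 of 11 macrophage markers and 3 of 4 plasma cell markers were lower, and 5 of 5 erythroid markers were higher, in the KO.

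Odc1 encodes ornithine decarboxylase, the first step of polyamine synthesis from ornithine. Its main probe lies on chromosome 12 at 17557831 to 17557890, plus strand, among 4 probes, some of which overlap. Odc1 stood at 14.6 in WT and 14.5 in KO macrophages, 17.5 and 13.4 with TNF, and, in neutrophils, 27.8 and 31.1. The macrophage arrays were close together and the neutrophil arrays above them. The genotypes differed by -0.01, -0.38 and 0.16, and the 4 probes ranged from -0.78 to -0.38 in macrophages with TNF.

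Past ornithine, 16 polyamine genes were on the array, 15 of them measured, and 1 was lower in the KO in each of the 3 comparisons. This was Sat2, a diamine acetyltransferase family gene, at 0.48 in WT and 0.07 in KO macrophages, 0.36 and 0.11 with TNF, and, in neutrophils, 0.24 and 0.05. Its differences were -2.71 and -1.72 in macrophages, and it was at least 5.06-fold lower in neutrophils, where the KO array was not above background. The second Sat2 probe read -1.36 and -0.76, so only the first probe passed 2-fold with TNF. Under normexp the values were -1.47, -0.80 and -0.67, past 2-fold only without TNF. With TNF in WT macrophages, Sat1 (log2 -1.10) and Paox (log2 -1.06), which act in polyamine breakdown, were the 2 of 15 that were lower. None of 15 passed 2-fold in KO, where Sat1 also fell, from 43.3 to 23.4, and Paox from 16.2 to 9.66. None of 15 passed 2-fold in the difference between TNF differences.

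In the list of 7 genes of ornithine and proline, Pycr1, an enzyme of proline synthesis, was past 2-fold in KO macrophages without TNF (log2 1.07) and with TNF (log2 1.17). Its 2 probes went opposite ways, the second at -1.42 and -1.20, so no direction is given for the gene. Oat, which turns ornithine towards proline, stood at 6.95 and 6.47 in macrophages and 7.19 and 5.63 with TNF. Of 7 genes of the urea cycle and creatine synthesis, 4 were measured in macrophages. Gatm, which uses arginine for creatine synthesis, stood at 3.95 in WT and 5.06 in KO macrophages and 1.47 and 3.95 with TNF. As with Arg1, the WT array with TNF was the low one, with a TNF difference of -1.43 in WT and -0.36 in KO and a KO-minus-WT difference of 1.43 with TNF (0.65 with spike-ins).

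**Figure D4:**
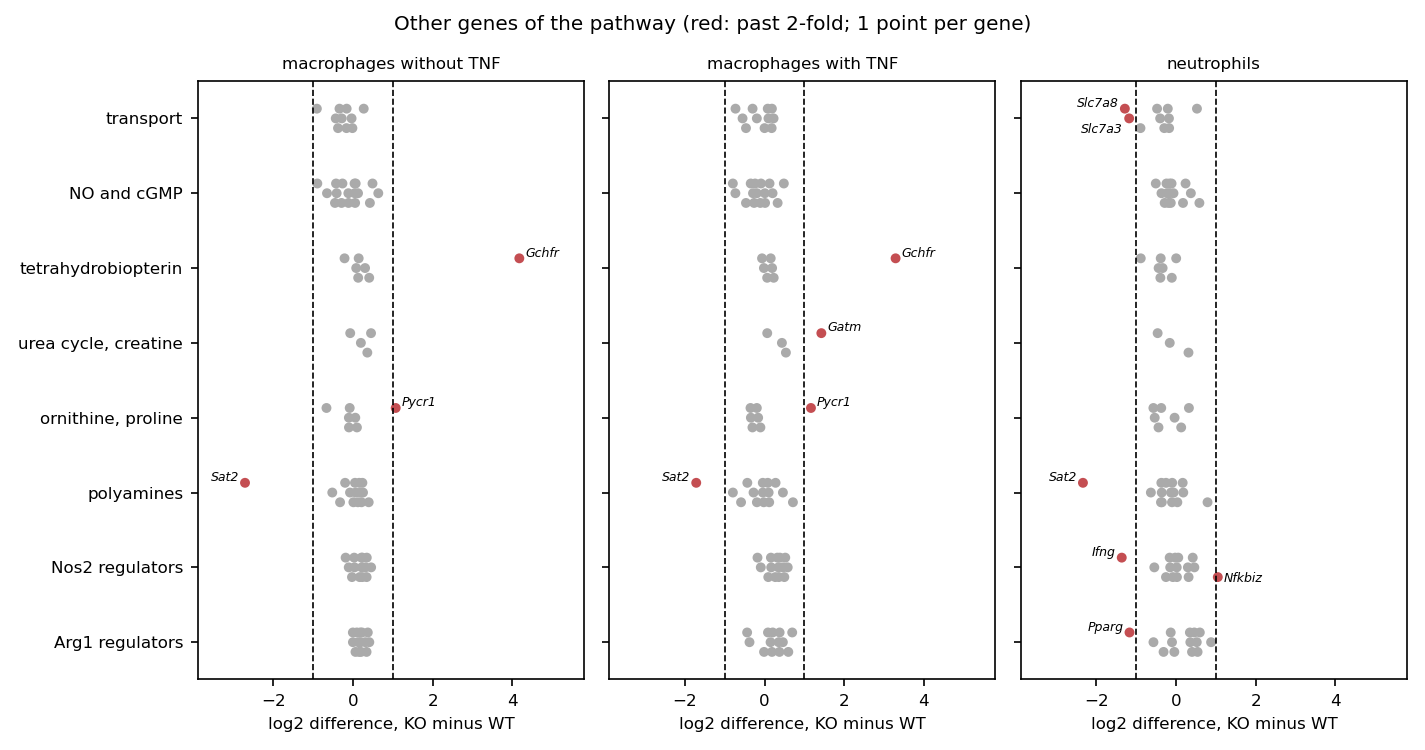
KO-minus-WT log2 difference of the other genes of the pathway by list, 1 point per measured gene, in the 3 conditions; red points with names are past 2-fold, shown by the dashed lines. Most points lie between the lines, Gchfr lies at 4.18 and 3.29 in macrophages, and Sat2 lies below -1 in all 3 panels.

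Between cell types, 2 of 9 members were higher and 3 lower in WT neutrophils than in WT macrophages without TNF, where 44.3% of 25057 genes were called (26.4% higher and 17.9% lower). In the KO, 3 were higher and 3 lower, where 44.9% of 24919 genes were called (25.3% higher and 19.6% lower). The share of members called was thus near the background. Cell type went together with tissue (spleen or peritoneal cavity) and way of collection, so these cannot be told apart. With spike-ins no member was higher, and 6 were lower in WT and 5 in the KO. The spike-in probes disagreed most here, with SDs of their unscaled log2 differences of 0.80 in WT and 0.70 in the KO. Arg1 was at least 4249.6-fold lower in WT neutrophils and at least 6995.9-fold lower in KO neutrophils than in macrophages of the same genotype (log2 -12.05 and -12.77, or -9.50 and -10.12 under normexp).

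Asl was 3.21-fold and 4.92-fold lower in neutrophils. Arg2 was higher in both genotypes (log2 2.23 and 2.36, or 0.65 and 0.89 with spike-ins), and Nos2 was 2.69-fold higher in WT (log2 1.43) and 0.94 higher on the log2 scale in KO. When the arrays were scaled to the spike-ins the Nos2 difference in WT turned to -0.15. Slc7a1 and Odc1 passed 2-fold in the KO (log2 1.09 and 1.10), and turned to -0.38 and -0.37 under that scaling.

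The genes with the pattern most like that of a member were ranked by the root mean square difference of centred log2 levels over the 6 arrays, among 18565 genes. For Slc7a2 they were Cfb (0.54), a complement factor gene, Clmp (0.75) and Olr1 (0.79), the gene of a receptor for oxidised lipoprotein. For Arg1 they were Gpnmb (1.06), Saa3, an acute phase gene, and the creatine transporter gene Slc6a8 (both 1.26). These 3 shared the far lower neutrophil level of Arg1 but not its macrophage differences. The TNF difference in WT was -1.55 for Arg1, and -0.19, 1.36 and -0.38 for Gpnmb, Saa3 and Slc6a8. KO minus WT with TNF was 1.71 for Arg1, and -0.70, 0.90 and 0.07 for these genes. For Gch1 they were Met (0.18), the hepatocyte growth factor receptor gene, and 2 non-coding regions. For Nos2 they were Gm9883 (0.19), above background on 1 array, Gm8075 (0.21) and a non-coding region. Among the members themselves, Ass1 ranked 73 for likeness to Slc7a2 (1.61), and the other pairs were farther down.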

How the data were processed

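Total RNA was labelled with Cy3 and hybridised in 1 colour, 1 array per group, and groups came from the labels. Per the file headers, the authors' images were read with Agilent Feature Extraction 10.7.3.1. The deposited processed intensity of each spot had its background subtracted and was not yet scaled between arrays. Probe positions in the files are on mm9.

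RefSeq promoter windows were searched for motifs in their 250 upstream bases, and the 50 downstream bases were not used. Control spots and spots marked as outliers (101 to 121 per array) were left out, repeat spots were averaged, and log2 of the processed intensity minus the array's 75th percentile over gene probes was used. The deposited intensities were on a linear scale, not log2. Each gene was read from its brightest probe, by mean log2 level over the arrays, and the other probes are given by range. A fold is given as "at least" where 1 array fell short of the files' mark for signal well above background. The bright array was then compared with the floor of the dim array, its lowest marked signal, or with the probe itself if that was higher. The difference between TNF differences needed a probe above background on all 4 macrophage arrays.

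No test within a condition was possible, and precision is limited by the number of arrays. A model of genotype pooled over the conditions was not fitted. The named genes were the 9 members, a set of fixed landmarks, the members of 8 related lists past 2-fold (at most 3 per direction), marker genes of other cell types, and the 3 genes most alike. The 9 genes and all lists were chosen with earlier results of these data known. Alternatives were quantile normalization, scaling to the median or to 8 spike-in probes, normexp with offset 50 (limma 3.58.1, R 4.3.3), removal of an intensity trend, other filters on dim probes, the median over probes, and 1.5-fold and 3-fold limits. Scripts ran in Python 3.11.15 with pandas 2.3.3, and the size rule was tested on simulated data.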

Additional observations from a re-analysis of the deposited data

Results flagged for a closer look

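Gch1, Slc7a1 and Odc1 are listed because 2 conditions moved opposite ways under the main scaling, always by less than 2-fold and with 1 array each. In each case the difference was not tested. The KO-minus-WT difference of Gch1 was 0.15 in macrophages without TNF and -0.11 with TNF. That of Slc7a1, the transporter gene, was -0.52 without TNF and -0.26 with TNF in macrophages, and 0.30 in neutrophils. That of Odc1 was -0.38 in macrophages with TNF and 0.16 in neutrophils, and its TNF difference was 0.26 in WT and -0.11 in KO macrophages. The 4 Odc1 probes ranged from -0.17 to 0.24 in neutrophils. With spike-ins, every KO-minus-WT value listed here was below 0. In the same order, Gch1 then read -0.37 and -0.89, Slc7a1 -1.04, -1.04 and -0.12, and Odc1 -1.165 and -0.25. The Odc1 TNF differences stayed opposite, at 0.22 in WT and -0.41 in KO. The scatter of a difference between repeat spots, 0.09 on the log2 scale, is close to the values of 0.15, 0.16 and -0.11.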

How the results depend on the processing

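No paired analysis was possible because each group has 1 array, so no condition holds replicate pairs. Pairing WT and KO across conditions was not run. Quantile normalization, scaling to the median, and removal of an intensity trend changed no count of members called by more than 1.5 times. Scaling to spike-ins moved the median of all genes by -0.52, -0.77 and -0.41 for KO minus WT (macrophages, macrophages with TNF, neutrophils) and by -1.50 and -1.43 for neutrophils minus macrophages. It turned Nos2 to -0.15 in WT, and Slc7a1 to -0.38 and Odc1 to -0.37 in the KO, in that last comparison.

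For KO minus WT in macrophages, where 1 member was called, a 1.5-fold limit gave 2 and a 3-fold limit 0. In neutrophils, where 1 was called, spike-ins gave 3, no filter on dim probes 2 and a 1.5-fold limit 3. For TNF in WT macrophages, where 4 were called, requiring signal on all 6 arrays gave 2, since Arg1 and Slc7a2 drop out. For the difference between TNF differences, where 2 were called, spike-ins, normexp and signal on all 6 arrays gave 1 each and a 3-fold limit 0. For WT neutrophils against macrophages, where 5 were called, signal on all 6 arrays gave 3.

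Of all genes, 1388, 2293 and 2010 were called for KO minus WT in these 3 conditions. The counts were 438, 819 and 817 under normexp, 735, 1411 and 1168 with signal on all 6 arrays, and 3355, 4392 and 4211 without a filter, and spike-ins gave 2201 and 5464 in macrophages. For TNF in WT and KO, 2215 and 1957 were called, against 1071 and 963 under normexp, 1305 and 1224 with signal on all 6 arrays, and 4276 and 3737 without a filter. The 460 genes of the difference between TNF differences became 123 under normexp and 3859 without a filter. Signal near background limits Arg1 and Slc7a2 in neutrophils.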

Other observations

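The related lists also separated the neutrophil from the macrophage arrays, with the spread between mice unknown. Cell type cannot be told apart here from tissue and way of collection. Neutrophils of both genotypes stood below macrophages without TNF for Slc6a8, the creatine transporter gene (at least 1181.5-fold in WT and 1151.2-fold in KO), for Gatm (log2 -2.19 and -2.24) and for Txnrd1 (log2 -2.97 and -2.91). Cebpa, a myeloid transcription factor gene, was lower too (log2 -4.49 and -4.59). Nfkbiz, an NF-kB regulator gene, was higher (log2 3.50 and 4.73), as were Klf4 (log2 3.88 and 3.59) and Kdm6b, a histone demethylase gene (log2 3.06 and 3.05). Gchfr was higher in WT neutrophils (log2 4.75, against a dim WT macrophage reading), while Spr (log2 -1.29 and -1.80), of the same list, was lower in both genotypes. In these comparisons 44.3% and 44.9% of all genes were called, so a call alone does not set any of these genes apart. The median size of the log2 difference over all genes was 0.94 in WT and 0.93 in the KO, below the values given here.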
